A study of Homo sapiens with 18 samples.

Results

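The genes described here are 34 genes of the actin cytoskeleton, and their mRNA was followed in MCF-10A cells depleted of nucleotide excision repair (NER) genes. They were chosen by name as actins, myosin subunits, tropomyosins, filament cross-linkers, focal adhesion proteins and their regulators, out of 22031 genes in the deposited expression table. MCF-10A cells are human breast epithelium that is immortal but not malignant. Isogenic dNER (deficient in NER) lines had been made with lentiviral shRNA particles against XPA, XPC, ERCC4, ERCC5 or ERCC6, and the control line (shCTRL) with a non-target shRNA, all under puromycin selection. The lines are called shCTRL, shXPA, shXPC, shERCC4, shERCC5 and shERCC6 below. Their rRNA-depleted RNA was sequenced from 3 biological replicates per line, which makes 18 libraries. Each target was hit by 1 shRNA clone and there was 1 control line, so that a response to the loss of a repair gene and a difference between separately selected lines cannot be told apart.

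Actin monomers polymerise into filaments that myosin II pulls on, tropomyosins and calponins coat, and alpha-actinin and filamin cross-link. In epithelial cells grown on plastic the resulting stress fibres end in focal adhesions, where talin, kindlin and vinculin join integrins to the filaments and zyxin and other LIM proteins collect under tension. Many of these genes are known targets of serum response factor (SRF), which binds the CArG box in DNA. Its cofactors MRTF-A and MRTF-B are held by actin monomers and are freed when monomers are used up by polymerisation.

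The promoters of several of these genes carry the CArG box close to a start site. In RefSeq promoter windows of GRCh38.p14 that run from 250 bases before a start of a gene, 31 of the 34 genes were matched, and TAGLN, MYL9 and ACTB were not. Only 1 window was used per gene, and it need not lie at the outermost start. The MYLK window (chr3:123620549-123620798, minus strand) lay far inside the gene, which spans 123610049 to 123884331. So did the CALD1 window (chr7:134779384-134779633, plus strand), in a gene that spans 134744252 to 134970728. The box (CC, any 6 letters of A or T, then GG, which reads on both strands) was found in 8 of the 31, namely ACTG1, ACTG2, CNN2, FHL2, FLNA, MYLK, SRF and TPM4, and in 1.285% of all 27305 promoters. The 5 stretches below stand for genes that fell strongly in the dNER lines (FLNA, TPM4 and ACTG1), for SRF itself and for CNN2, which fell little. They are written 5′ to 3′ on the strand of the gene, with the box in capitals.
FLNA, chrX:154374694-154374753, minus strand: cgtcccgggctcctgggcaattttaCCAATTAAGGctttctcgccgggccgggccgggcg
TPM4, chr19:16067340-16067399, plus strand: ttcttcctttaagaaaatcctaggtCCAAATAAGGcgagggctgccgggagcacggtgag
ACTG1, chr17:81512859-81512918, minus strand: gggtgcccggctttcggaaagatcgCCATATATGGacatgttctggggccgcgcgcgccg
SRF, chr6:43171214-43171268, plus strand: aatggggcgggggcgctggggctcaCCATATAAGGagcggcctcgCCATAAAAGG
CNN2, chr19:1026494-1026553, plus strand: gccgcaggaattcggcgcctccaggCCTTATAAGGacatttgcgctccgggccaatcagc
The box lay 94 bases before the start in FLNA and in ACTG1, 89 in CNN2 and 173 in TPM4, and SRF had 2 boxes, at 30 and 10 bases. The MCAT core CATTCC, the site known for TEAD factors, was found on either strand in 7 of the 31 windows (CALD1, MYH10, MYH9, MYLK, NEXN, PFN1 and VCL) and in 14.0% of all promoters.

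Values are TPM (transcripts as a share of each library, scaled to a fixed total), which the authors made with kallisto and gave per gene symbol. TPM hold no read depth, so the precision of a level is given as the SD over the 3 replicates. Each dNER line was compared with shCTRL in 1 limma fit on log2(TPM + 0.5) over the 16382 genes that reached 1 TPM in at least 3 libraries, which all 34 genes did. Genes were called at a q (Storey's false discovery rate) under 0.05 and a fitted fold above 1.5, and fold changes below are on that log2 scale unless a ratio of TPM is named. Over all genes tested the deposited values moved down, with a median log2 fold change of -0.33 for the mean of the 5 dNER lines. Results are therefore also given after median-of-ratios scaling of the libraries, under which that median was 0.01. In its own line each targeted gene kept 40.8% to 67.6% of the mRNA of shCTRL as deposited, with XPA the least reduced. The log2 fold change of XPA in shXPA was -0.54 (q = 0.0032 by limma), under the fold threshold. Scaling divides shCTRL by 1.24 and shXPA by 0.959 on average, so the reduction of XPA would then be smaller. In shERCC4 replicate 1 a single entry, CTD-2328D6.1, held 26.5% of all TPM, against 3.44% to 7.58% in the other libraries. Epithelial keratins were abundant in every library, with KRT5 between 1753 and 4177 TPM. Of the smooth muscle markers that are not among the 34 genes, LMOD1 and SYNPO2 stayed under 1 TPM throughout, DES reached at most 2.70 TPM, and MYH11, the smooth muscle myosin heavy chain, was 4.15 to 4.998 TPM in shCTRL and 1.95 to 4.61 TPM in the dNER libraries.

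Most of the actin cytoskeleton genes fell in the dNER lines, and none was called higher. Their summed level was 18922 to 20237 TPM in the 3 shCTRL libraries and 5934 to 10565 TPM in the 15 dNER libraries, that is 1.89% to 2.03% and 0.594% to 1.06% of all TPM. Of the 34 genes, 29 were called lower in shXPA, 29 in shXPC, 30 in shERCC4, 23 in shERCC5 and 22 in shERCC6. Over all genes tested the shares called lower were 30.9%, 38.0%, 30.9%, 28.3% and 19.7% in the same order. The number of the 34 genes called higher was 0 in each line, where limma called 11.9% of all genes higher in shXPA, 9.89% in shXPC, 4.38% in shERCC4, 9.97% in shERCC5 and 6.52% in shERCC6. At an unadjusted p under 0.05 the number higher was 0 as well. The comparisons share the 3 shCTRL libraries, and without shERCC4 replicate 1 the count in shERCC4 was again 30. In bulk RNA, fewer cells that express a gene and less of its RNA per cell cannot be told apart.

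For the mean of the 5 dNER lines against shCTRL, 30 of the 34 genes were lower and 0 higher, where 28.6% of all genes were called lower and 7.84% higher. The median log2 fold change was -1.30 over the 34 genes and -0.33 over all genes. In all 5 lines 20 genes were called lower, against 9.53% of all genes, and 0 were called higher, against 2.01%. These 20 are both cytoplasmic actins, MYH9, MYH10, MYL9, the 4 tropomyosins, TAGLN, SMTN, ACTN1, ACTN4, FLNA, NEXN, TLN1, VCL, ZYX, FERMT2 and PDLIM7. Every dNER library lay below every shCTRL library for 29 of the 34 genes, and for 24.5% of all genes.

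**Figure D1:**
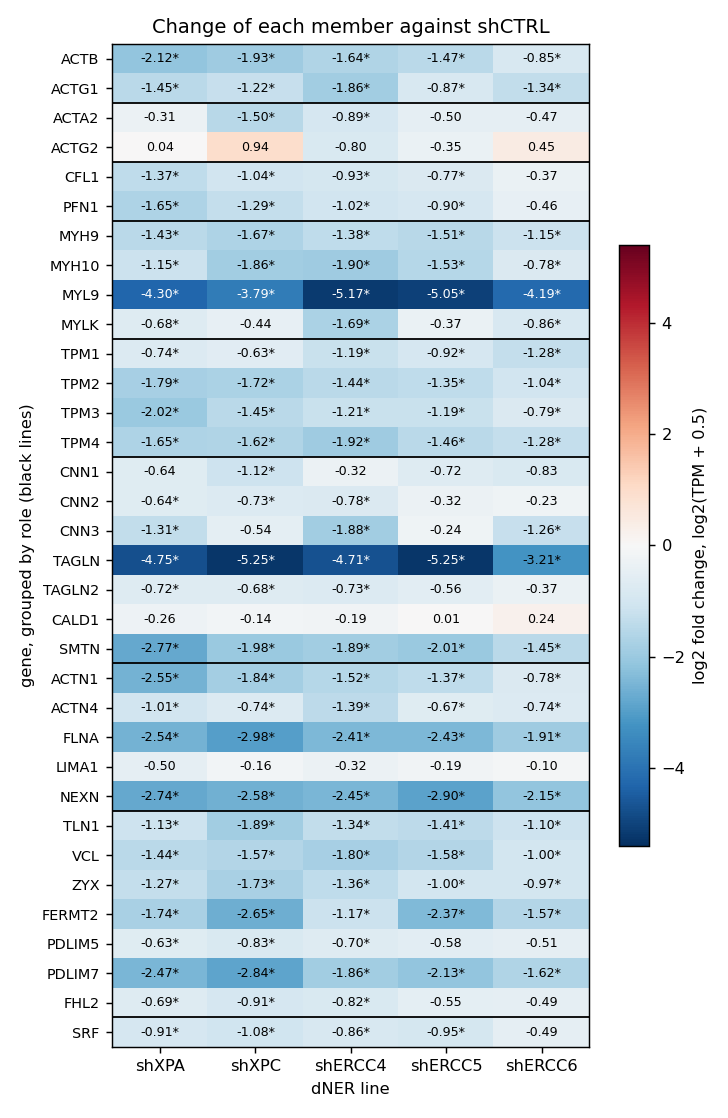
Each row is a gene, ordered by role, and each column a dNER line, and the colour and number give the log2 fold change against shCTRL on log2(TPM + 0.5), with a star where the gene was called changed. TAGLN and MYL9 stand out with values from -3.21 to -5.25, while ACTG2, CALD1 and LIMA1 carry no star in any line.

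The fall was smaller after median-of-ratios scaling, but most of it was kept. Called lower were then 22 genes in shXPA (16.2% of all genes), 21 in shXPC (15.5%), 23 in shERCC4 (10.6%), 18 in shERCC5 (12.7%) and 17 in shERCC6 (10.4%), all of them among the genes called without the scaling. None was called higher, where 19.5%, 18.9%, 10.0%, 16.4% and 10.6% of all genes were. CALD1 was then higher at an unadjusted p under 0.05 in 4 of the lines and LIMA1 in shXPC, both under the fold threshold. For the mean of the 5 lines 20 genes were lower (11.9% of all genes) and 0 higher (13.9%), with a median log2 fold change of -0.93 for the 34 genes. In all 5 lines 14 genes were lower (3.49% of all genes) and 0 higher (4.30%). These were ACTB, FERMT2, FLNA, MYH9, MYL9, NEXN, PDLIM7, SMTN, TAGLN, TLN1, TPM2, TPM4, VCL and ZYX. All dNER libraries then lay below all shCTRL libraries for 22 of the 34 genes and for 9.63% of all genes.

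**Figure D2:**
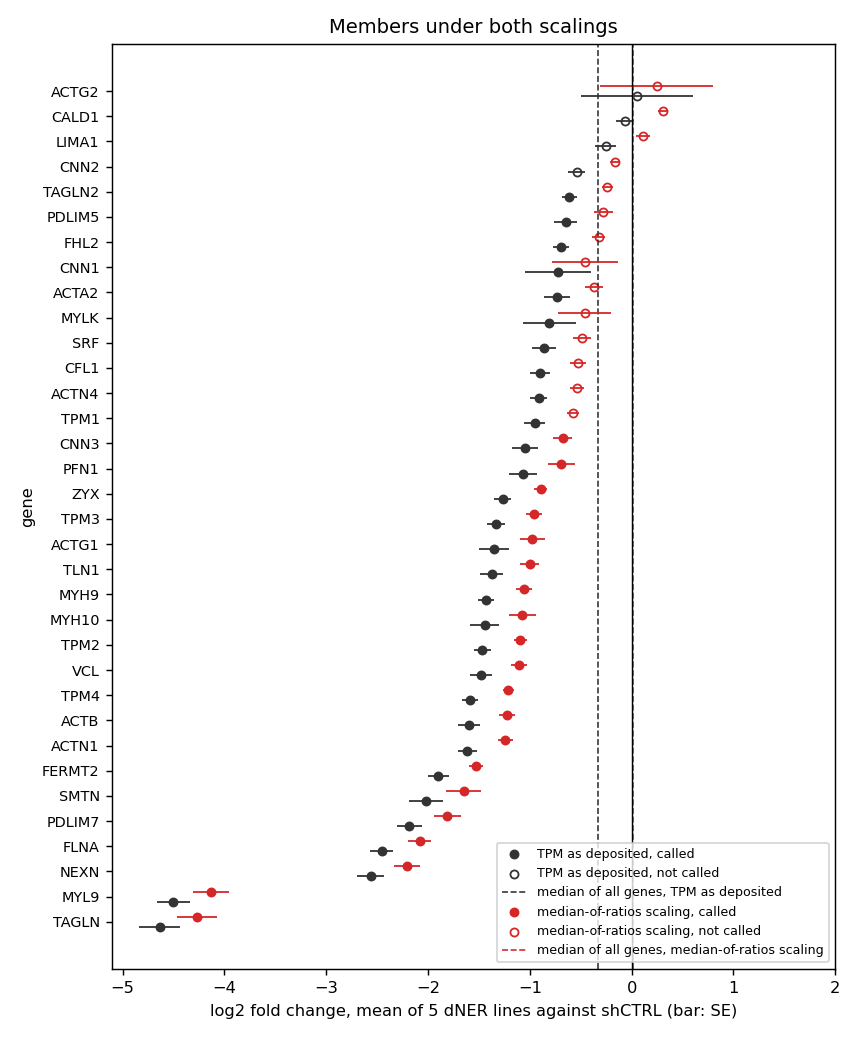
Each gene has its log2 fold change for the mean of the 5 dNER lines against shCTRL (x axis, bar for the SE), from the TPM as deposited in black and after median-of-ratios scaling in red, filled where called and open where not. Dashed lines mark the median of all genes, -0.33 and 0.01, and all but ACTG2, CALD1 and LIMA1 lie below 0 under both.

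Beta-actin and gamma-actin, the cytoplasmic actins that make up most filaments of non-muscle cells, were the most abundant of the 34 genes and both fell in all 5 lines. ACTB (chromosome 7, 5527147 to 5563784 on GRCh38) was 5038, 4670 and 4962 TPM in shCTRL. It was 1218, 1105 and 1066 TPM in shXPA and 1134, 1438 and 1295 TPM in shXPC. It was 1348, 2035 and 1408 TPM in shERCC4, 1652, 1719 and 1930 TPM in shERCC5 and 2703, 2670 and 2789 TPM in shERCC6. The highest dNER library, of shERCC6, was thus well below the lowest shCTRL library, and shXPA and shERCC6 did not overlap. The log2 fold change ran from -2.12 in shXPA to -0.85 in shERCC6 (SE 0.14 in each, q at most 7.1e-05 by limma). ACTG1 was 6386 ± 662 TPM (SD, n = 3) in shCTRL and between 1770 ± 311 in shERCC4 and 3507 ± 558 in shERCC5, and its log2 fold change for the mean of the lines was -1.35 (SE 0.14, q = 1.92e-07). After scaling, ACTG1 was no longer called in shERCC5 (log2 fold change -0.52, q = 0.0049), since it missed the fold threshold. ACTB and ACTG1 have 10 and 20 processed or other pseudogenes named for them in GENCODE release 29, of which 3 and 5 have rows of their own in the table, so that reads may be split between copies.

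ACTB is a common reference for quantitative PCR, and it moved more than the other reference genes listed. Of 13 such genes 2 were called lower for the mean of the lines and none higher, with a median log2 fold change of -0.33, that of all genes. Over all genes 28.6% were called lower and 7.84% higher. The 2 were TBP (-0.95) and HPRT1 (-0.70), and ACTB stood at -1.60. After scaling 1 of the 13 was lower (TBP, -0.59) and 2 were higher (RPLP0, 0.92, and PPIA, 0.63), beside 11.9% and 13.9% of all genes. GAPDH, a glycolytic enzyme, ranged from 2969 to 3082 TPM in shCTRL and from 1937 to 4394 TPM in the dNER libraries (log2 fold change -0.04, q = 0.21). After scaling its log2 fold change was 0.33 (q = 3.0e-05 by limma), under the fold threshold.

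The smooth muscle actins were low and moved less. ACTA2, which myoepithelial cells and myofibroblasts express, was 25.2 ± 2.25 TPM in shCTRL, 20.3 ± 2.72 in shXPA, 13.7 ± 3.85 in shERCC4, 17.7 ± 1.10 in shERCC5 and 18.04 ± 1.43 in shERCC6. In shXPC it was 8.27, 8.84 and 8.71 TPM, below every other library. It was called lower in shXPC (log2 fold change -1.50, q = 2.4e-07) and shERCC4 (-0.89), and after scaling in shXPC alone, with a value of 0.05 in shXPA. Exons of ACTA2 overlap those of FAS on the other strand by 380 bases, and the sources do not state whether quantification used strand, so that reads of the shared part cannot be told apart. ACTG2, the enteric smooth muscle actin, lay between 0 and 4.43 TPM with no order by line, and was called in none.

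Of the actin-binding proteins that turn filaments over, cofilin (CFL1), which severs them, and profilin (PFN1), which loads monomers, were both lower in 4 lines, shERCC6 being the exception, and after scaling CFL1 was called in 1 line and PFN1 in 3. PFN1 was 1416 ± 204 TPM in shCTRL, 450 ± 39.8 in shXPA, 576 ± 35.6 in shXPC, 720 ± 259 in shERCC4, 753 ± 30.9 in shERCC5 and 1027 ± 139 in shERCC6. In shERCC6 its log2 fold change was -0.46 (SE 0.18, q = 0.021), under the fold threshold. CFL1 ranged over the line means from 372 TPM in shXPA to 746 TPM in shERCC6, against 969 ± 115 TPM in shCTRL. Exons of CFL1 and PFN1 overlap those of neighbouring genes on the other strand, and 4 pseudogenes named for CFL1 and 6 named for PFN1 are rows of the table.

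Of the 4 myosin genes described here, the light chain MYL9 fell far more than the others. Light chains outside this set were more abundant in shCTRL and fell less. MYL6 had a mean of 1283 TPM in shCTRL, MYL12A of 526 TPM and MYL12B of 366 TPM. Their log2 fold changes for the mean of the lines were -0.45, -0.90 and -0.42. After scaling they were -0.08, -0.52 and -0.04. Only MYL12A was called lower for that mean, and it was not called after scaling. MYL9, a regulatory light chain of smooth and non-muscle myosin II (chromosome 20, 36541484 to 36551447), was 146, 152 and 166 TPM in shCTRL. It was 7.50, 6.40 and 8.33 TPM in shXPA, 11.01, 10.5 and 10.6 TPM in shXPC, and 4.15, 5.42 and 2.40 TPM in shERCC4. It was 4.71, 4.34 and 3.61 TPM in shERCC5 and 8.24, 9.86 and 6.25 TPM in shERCC6. No dNER library exceeded 11.01 TPM, and by line means MYL9 was 14.5-fold lower in shXPC and 38.8-fold lower in shERCC4. Its log2 fold change for the mean of the lines, -4.50 (SE 0.16, q = 1.37e-12), was the fifth lowest of 16382 genes. MYH9, the heavy chain of non-muscle myosin IIA and the most abundant of the 4 myosin genes, fell evenly, from 345 ± 11.1 TPM in shCTRL to between 108 ± 5.91 in shXPC and 156 ± 5.33 in shERCC6, a range among the dNER lines under 1.5-fold. MYH10, the IIB heavy chain, fell from 64.5 TPM to between 16.9 and 37.2 TPM. MYLK, the kinase that phosphorylates MYL9, was 8.37 ± 1.81 TPM in shCTRL and 2.21 to 6.70 TPM in the lines. It was called lower in 3 of them (shXPA, shERCC4 and shERCC6), and after scaling in shERCC4 alone. In shXPA the call rests on a Storey q of 0.032 that lies below its unadjusted limma p of 0.057, and MYLK is counted among the genes called there.

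All 4 tropomyosins, coiled coils that lie along the filament and gate myosin, were lower in all 5 lines. TPM3, the most abundant, was 697 ± 37.0 TPM in shCTRL, 171 ± 4.61 in shXPA, 256 ± 16.9 in shXPC, 305 ± 66.1 in shERCC4, 304 ± 7.27 in shERCC5 and 403.5 ± 25.6 in shERCC6. TPM4 had the largest fall, from 512 ± 8.27 TPM to between 135 ± 21.1 TPM in shERCC4 and 211 ± 7.03 TPM in shERCC6 (log2 fold change -1.59, SE 0.08, q = 3.39e-11). TPM2 ranged from 105 to 177 TPM against 363 TPM, and TPM1 from 112 to 176 TPM against 272 TPM. After scaling TPM1 was called in 2 lines and TPM3 in 4.

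The calponin family held both the steepest fall and genes that hardly moved. TAGLN (transgelin or SM22, chromosome 11, 117199321 to 117204782), an actin-bundling protein and textbook SRF target, was 235, 233 and 244 TPM in shCTRL. It was 9.74, 8.24 and 7.21 TPM in shXPA, 4.34, 8.73 and 5.01 TPM in shXPC, and 8.07, 14.1 and 5.50 TPM in shERCC4. It was 5.65, 5.298 and 6.35 TPM in shERCC5 and 20.6, 27.6 and 28.2 TPM in shERCC6. The 3 shERCC6 libraries lay above the other 12 dNER libraries and far below shCTRL. By line means TAGLN was 41.2-fold lower in shERCC5 and 9.33-fold lower in shERCC6, and its log2 fold change of -4.63 (SE 0.20, q = 1.12e-11) was the fourth lowest of 16382 genes. Exons of TAGLN share 446 bases with PCSK7 on the other strand.

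The other members of the family were TAGLN2, the calponins, caldesmon and smoothelin. TAGLN2, the transgelin of non-muscle cells and the most abundant of the family, was 816 ± 7.57 TPM in shCTRL and 495 ± 84.0 to 633 ± 12.8 TPM in the lines, and none of its calls held after scaling. SMTN, smoothelin, fell from 68.3 ± 6.76 TPM to between 9.56 and 24.6 TPM (log2 fold change -2.02). CNN1, the smooth muscle calponin, was under 2 TPM in every library and was called lower in shXPC. CNN2 was called in 3 lines and in none after scaling. CALD1, caldesmon, which inhibits myosin on the filament, was 120, 141 and 134 TPM in shCTRL, where its line means ran from 110 ± 2.69 in shXPA to 155 ± 8.63 in shERCC6. Its log2 fold change of -0.07 (q = 0.154) became 0.30 (SE 0.05, q = 2.99e-05) after scaling, so that its direction depends on the scaling.

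**Figure D3:**
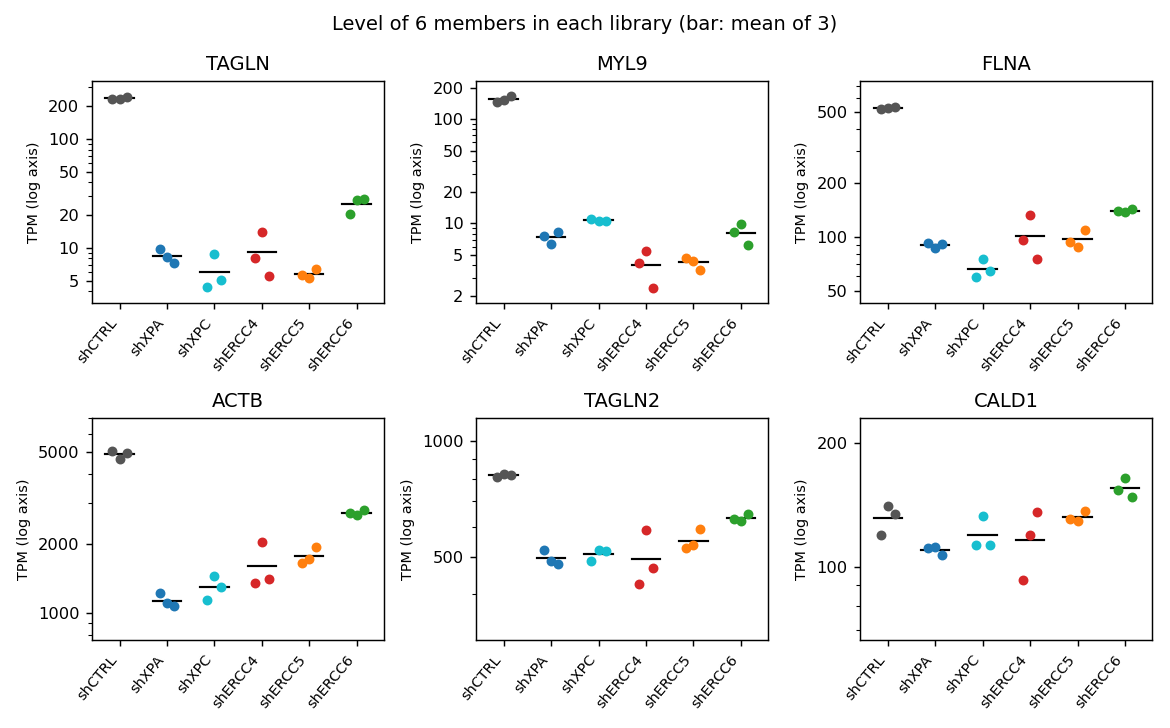
Each panel shows the TPM of a gene (log axis) in the 3 libraries of each line, with a bar at the mean. TAGLN, MYL9, FLNA and ACTB are lower in all 15 dNER libraries than in shCTRL, TAGLN2 is lower by less, and the dNER libraries of CALD1 lie on both sides of shCTRL.

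All cross-linkers but LIMA1 fell in every line. NEXN, nexilin, which binds filaments at adhesions, was 20.5, 19.8 and 19.3 TPM in shCTRL and 1.95 to 5.18 TPM in the dNER libraries (log2 fold change -2.56, SE 0.14, q = 7.93e-11). FLNA, filamin A, was 521 to 530 TPM in shCTRL and 59.5 to 142 TPM in the dNER libraries, lowest in shXPC and highest in shERCC6. ACTN4, alpha-actinin-4 and the most abundant on average, was 419 ± 12.7 TPM in shCTRL, 207 ± 5.39 in shXPA, 250 ± 18.5 in shXPC, 161 ± 27.7 in shERCC4, 263 ± 18.8 in shERCC5 and 251 ± 19.5 in shERCC6. ACTN4 shares 868 exon bases with CAPN12 on the other strand, and after scaling was called in 2 lines. LIMA1, which stabilises filament bundles, was 42.0 ± 4.02 TPM in shCTRL and 29.4 ± 2.31 TPM in shXPA to 39.2 ± 2.12 TPM in shERCC6, under the fold threshold in each line, and its direction turned in 4 lines after scaling.

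All 7 genes of focal adhesions and LIM proteins were lower for the mean of the lines. PDLIM7, a PDZ and LIM protein of stress fibres, was 224, 243 and 261 TPM in shCTRL and 32.5 to 90.7 TPM in the dNER libraries (log2 fold change -2.18, SE 0.12, q = 1.47e-10). ZYX, zyxin, fell from 169 ± 9.01 TPM to 50.7 ± 3.22 in shXPC, 66.3 ± 11.7 in shERCC4, 70.1 ± 5.75 in shXPA, 84.7 ± 4.29 in shERCC5 and 86.1 ± 5.61 in shERCC6. Talin (TLN1), which activates integrins, ranged from 33.8 to 58.1 TPM against 125 TPM. Vinculin (VCL), which ties talin to actin, ranged from 28.3 to 49.7 TPM against 99.7 TPM. FHL2, a LIM cofactor, and PDLIM5 fell in 3 lines each and in none after scaling, with line means of 31.8 to 42.5 TPM against 60.1 TPM and of 36.5 to 45.5 TPM against 64.8 TPM.

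SRF mRNA itself was 34.7, 35.2 and 38.9 TPM in shCTRL and 13.8 to 30.1 TPM in the dNER libraries, with every dNER library below shCTRL. It was called lower in 4 lines, all but shERCC6 (log2 fold change -0.49, q = 0.0072), and after scaling in shERCC5 alone (-0.60, q = 0.00015). Of the 8 genes with a CArG box in the window, 6 were lower for the mean of the lines (3 after scaling), with a median log2 fold change of -0.83. Of the 23 without it, 21 were lower (14 after scaling), with a median of -1.27. The 3 genes with no window (TAGLN, MYL9 and ACTB) were all lower under both, with a median of -4.50, beside 28.6% of all genes called lower (11.9% after scaling). Nothing on the box is read from these counts.

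The dNER lines were then compared among themselves by an F test in the same limma fit, which leaves shCTRL out of the means. It called 25 of the 34 genes at a range above 1.5-fold, where 55.7% of all genes were called, and 24 after scaling, where 53.1% were. Storey's q can lie below its p when most genes change. ACTG2 was called in this way at an unadjusted p of 0.17 and was not called with the Benjamini-Hochberg adjustment. Of the 34 genes, 24 were highest in shERCC6 (18 after scaling), and 11 were lowest in shXPC, 11 in shERCC4 and 9 in shXPA. The share of all genes that was highest or lowest in each line was not counted. Over all genes shERCC6 also fell least against shCTRL, with a median log2 fold change of -0.24, beside -0.29 to -0.42 in the other lines. After scaling these medians were -0.03 in shERCC6 and -0.01 to 0.04 in the others.

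The 4 genes with the largest F were ACTN1, FERMT2, TPM3 and CNN3. ACTN1, alpha-actinin-1 (F = 55.1, q = 1.9e-08), was 290, 283 and 274 TPM in shCTRL, 46.5, 52.2 and 44.8 TPM in shXPA and 169, 163 and 162 TPM in shERCC6. Its line means in shXPC, shERCC4 and shERCC5 were 78.8 ± 9.29, 99.7 ± 22.7 and 109 ± 4.82 TPM, where neighbours overlap. ACTN1 in shXPA was lower than the mean of the other 4 lines by a log2 difference of -1.17, and in shERCC6 higher by 1.04. Exons of ACTN1 share 300 bases with the pseudogene HMGN1P3 on the same strand, which has a row of its own in the table. TPM3 (F = 31.1) had the same ends, lower in shXPA (-0.86) and higher in shERCC6 (0.68).

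FERMT2 (kindlin-2), which with talin activates integrins (F = 42.1, q = 9.3e-08), was 65.95, 67.4 and 65.4 TPM in shCTRL. It was 10.4, 11.5 and 8.69 TPM in shXPC and 12.4, 12.02 and 12.9 TPM in shERCC5, and these lines did not overlap with the other 3. It was 23.3, 32.8 and 32.5 TPM in shERCC4, where it was higher than in the other 4 lines by a log2 difference of 0.91 (q = 3e-06). shXPA and shERCC6 had 19.6 ± 2.24 and 22.0 ± 0.995 TPM.

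CNN3, the calponin of non-muscle cells (F = 30.7, q = 5.85e-07), split the lines. It was 47.6, 44.2 and 42.4 TPM in shCTRL, 36.6, 36.9 and 39.6 TPM in shERCC5 and 27.7, 33.2 and 31.2 TPM in shXPC. It was 17.8 ± 2.55 TPM in shXPA, 18.4 ± 1.18 TPM in shERCC6 and 12.1 ± 3.96 TPM in shERCC4. CNN3 was called lower in these last 3 lines, and after scaling its log2 fold change was -0.04 in shXPC and 0.11 in shERCC5.

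**Figure D4:**
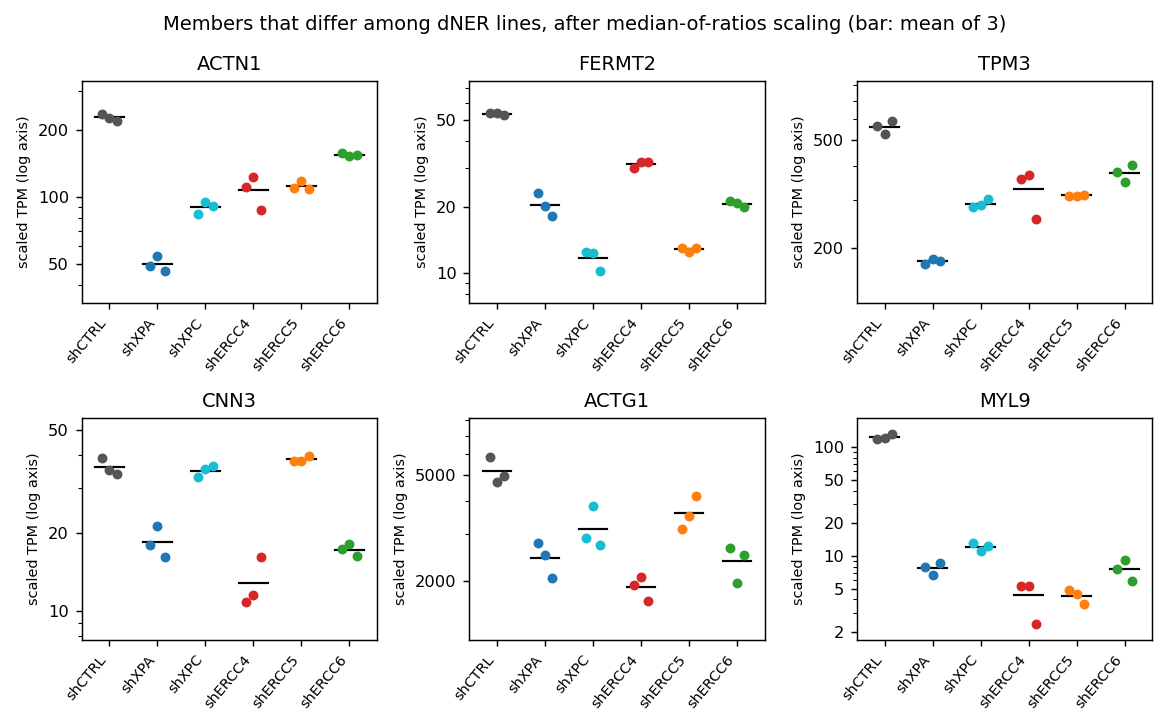
Each panel shows a gene that differs among the dNER lines, in TPM after median-of-ratios scaling (log axis), with the 3 libraries of each line and a bar at the mean. Among the dNER lines ACTN1 and TPM3 are lowest in shXPA and highest in shERCC6, FERMT2 is highest in shERCC4, CNN3 is near shCTRL in shXPC and shERCC5, and MYL9 is highest in shXPC.

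Single lines also stood apart in other genes, each compared with the mean of the other 4 dNER lines. shXPA was lower in ACTB (log2 difference -0.64), PFN1 (-0.73), CFL1 (-0.60) and SMTN (-0.94). shXPC was lower in ACTA2 (-0.95), FERMT2 (-0.94), PDLIM7 (-0.82) and TAGLN (-0.77) and higher in MYL9 (0.89). shERCC4 was lower in MYLK (-1.10), CNN3 (-1.05) and MYL9 (-0.84). shERCC5 was lower in FERMT2, MYL9 and TAGLN and higher in CNN3. shERCC6 was higher in TAGLN (1.78), ACTB (0.94) and MYH10 (0.84). Each of these differences was called in limma both as deposited and after scaling.

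A ratio of 2 genes within a library does not depend on the scaling between libraries, so 7 pairs of related genes were compared by an exact two-sided permutation test of 3 shCTRL against 15 dNER libraries, although libraries of 1 line are not independent. TAGLN to TAGLN2 was 0.283 to 0.299 in shCTRL and 0.00885 to 0.0443 in the dNER libraries, a log2 difference of -4.11 (15 of 15 libraries below shCTRL). Its p of 0.00123 is the smallest that the 816 assignments can give, and was 0.00858 after Benjamini-Hochberg adjustment over the 7 ratios. The assignments shuffle single libraries, and with 1 control line the p does not measure a difference at the level of the line. TAGLN was already known to be among the lowest genes, so its ratio is not separate evidence. The other 6 ratios did not pass. ACTN1 to ACTN4 had a log2 difference of -0.71 (12 of 15 below, adjusted permutation p = 0.189), with 0.231 ± 0.0221 in shXPA, 0.314 ± 0.0138 in shXPC and 0.415 ± 0.0387 in shERCC5 against 0.675 ± 0.0337 in shCTRL. shERCC4 and shERCC6, at 0.617 ± 0.0320 and 0.659 ± 0.0622, overlapped with shCTRL.

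The remaining ratios went both ways. ACTB to ACTG1 was 0.769 ± 0.0553 in shCTRL, between 0.475 and 0.508 in shXPA, shXPC and shERCC5, and 0.897 and 1.09 in shERCC4 and shERCC6 (log2 difference -0.25, adjusted permutation p = 0.552). TPM1 to TPM3 was 0.390 ± 0.0268 in shCTRL, 0.949 ± 0.0572 in shXPA and 0.278 ± 0.0416 in shERCC6 (adjusted permutation p = 0.552). CNN2 to CNN3 was 3.09 ± 0.385 in shCTRL and 2.71 ± 0.259 to 6.95 ± 1.67 in the lines (adjusted permutation p = 0.409). TPM2 to TPM4 and MYH9 to MYH10 had log2 differences of 0.12 and 0.03.

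**Figure D5:**
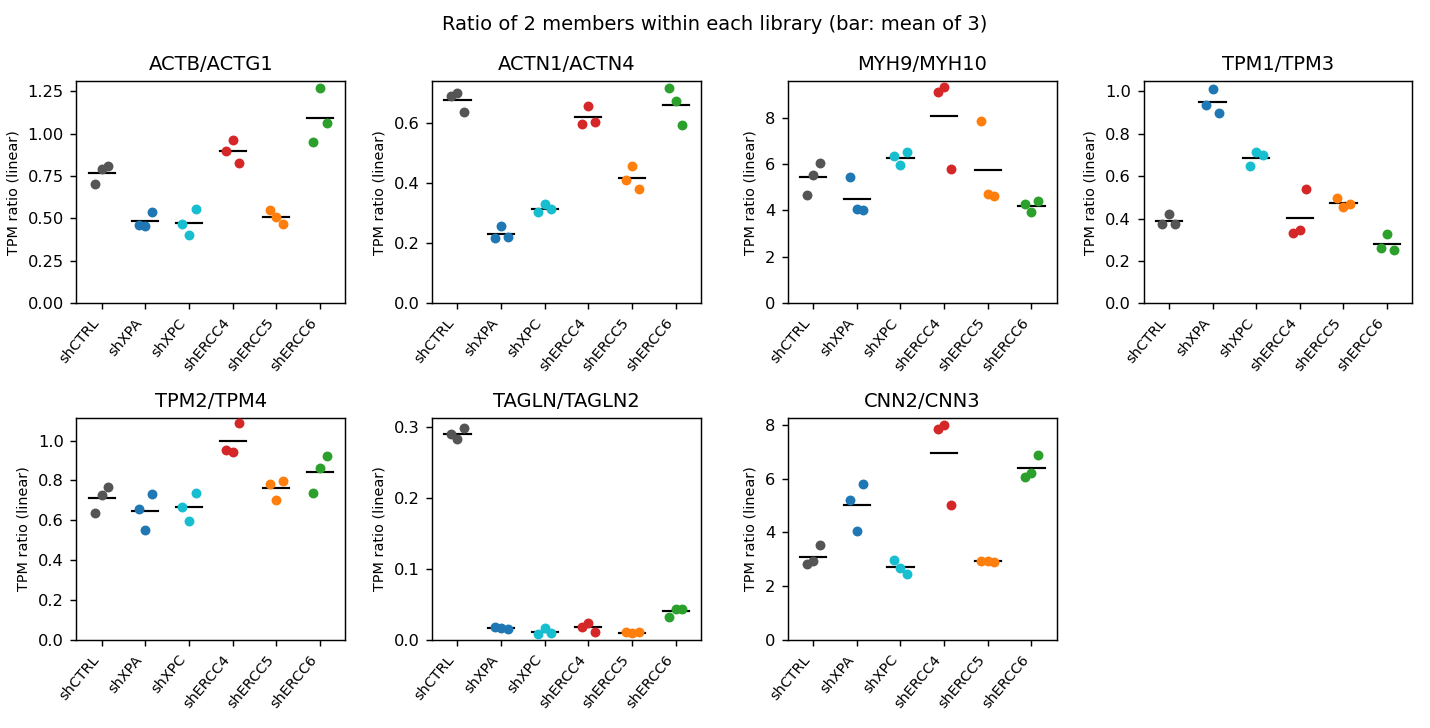
Each panel shows the ratio of the TPM of 2 genes within each library (linear axis from 0), with 3 libraries for each line and a bar at the mean. TAGLN to TAGLN2 is below 0.05 in every dNER library and near 0.29 in shCTRL, and the other ratios have lines on both sides of shCTRL or overlapping with it.

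Other genes of the pathway moved less as groups. Of 26 further focal adhesion genes tested, 20 were lower for the mean of the lines and 0 higher (9 and 1 after scaling), with a median log2 fold change of -0.80. Over all genes 28.6% were lower and 7.84% higher (11.9% and 13.9% after scaling). Those with large changes included TGFB1I1 (Hic-5, a LIM protein of adhesions, -2.20), KANK2 (-1.20) and TENC1 (tensin-2, -1.09). RHOA, the GTPase upstream of stress fibres, was 394 to 432 TPM in shCTRL and 170 to 249 TPM in the dNER libraries (log2 fold change -0.99, q = 5.5e-08).

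Capping, severing and monomer-binding genes were lower in 7 of 17 (3 after scaling, 1 higher), led by CFL2 (muscle cofilin, -1.60), WDR1 (-1.21) and CAP1 (-1.18). The Arp2/3 complex and its activators, which branch filaments, were lower in 4 of 16 (1 after scaling), with ARPC5 at -1.09, and other myosin subunits in 3 of 10 (1 lower and 1 higher after scaling), with MYO1C at -1.17. These last 2 counts are near or below the 28.6% of all genes called lower (11.9% after scaling). The medians of these 3 groups were -0.53, -0.40 and -0.32, beside -0.33 for all genes.

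The cofactors and immediate early targets of SRF moved both ways. Of 12 tested, 3 were higher and 3 lower (4 and 0 after scaling). Over all genes 7.84% were higher and 28.6% lower (13.9% and 11.9% after scaling), so the count of lower genes was near the share of all genes. FOS was 10.2 to 16.0 TPM in shCTRL and 33.7 to 67.2 TPM in the dNER libraries, higher in all 5 lines (log2 fold change 1.76, q = 9.7e-09). EGR1 (0.96) and EGR3 (0.72) were higher for the mean of the lines. FOSB, an immediate early gene like FOS, was lower (-0.80), as was ELK3, an ETS partner of SRF (-0.88), and neither was called after scaling. MRTF-A, listed as MKL1, was 38.5 to 43.6 TPM in shCTRL and 16.5 to 34.9 TPM in the dNER libraries (log2 fold change -0.65, q = 0.00017, not called after scaling). MRTF-B, listed as MKL2, had a log2 fold change of -0.23 (q = 0.086), and MYOCD was not analysed here.

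Cell type markers moved in the same libraries. Of the 10 mammary epithelial markers 5 were higher for the mean of the lines and 2 lower, and their summed level was 5121 to 5473 TPM in shCTRL and 3958 to 10682 TPM in the dNER libraries. The basal genes KRT14 and TP63 were higher in all 5 lines (log2 fold change 1.71 and 1.72). The 7 fibroblast markers summed to 246 to 267 TPM in shCTRL and 105 to 180 TPM in the dNER libraries, most of it DCN, and 2 of the 4 tested (DCN and FAP) were lower. The 7 smooth muscle markers, 3 of which are among the 34 genes, summed to 67.3 to 80.4 TPM and 13.5 to 32.5 TPM, most of it SMTN, which is itself one of the 34. Endothelial markers summed to at most 10.7 TPM in any library and immune markers to at most 45.0 TPM. Their part in the fall of the actin genes was not tested.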

How the data were processed

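RNA of 18 MCF-10A libraries was sequenced after rRNA depletion. The deposited values are TPM that the authors made with kallisto (0.43.1 in the submitters' processing notes, a later version in the methods) on hg38. The transcript annotation, summing to genes and strand setting are not given in the sources used here. TPM keep no depth, so counting intervals could not be had. R 4.3.3 with limma 3.58.1 fitted all 6 lines on log2(TPM + 0.5) with a mean-variance trend and 12 residual degrees of freedom, for genes that reached 1 TPM in 3 or more libraries. Storey's q used lambda 0.5, and the error is the replicate spread inside each line. Median-of-ratios factors were computed on genes above 1 TPM in every library. The pipeline was tested on simulated data. Positions are from GENCODE 29 and promoters from RefSeq (GRCh38.p14). Figures used Python 3.11.15 and matplotlib 3.10.9. Members and lists were chosen with earlier results of these data known. Named with full values are, in each role class, the most abundant gene and the one with the largest change, genes called in no line and the 4 with the largest F, other members by range. From the lists, up to 4 genes with the largest changes are named, with RHOA, GAPDH and the MRTFs. The light chains MYL6, MYL12A and MYL12B and the reference genes PPIA and RPLP0 are named as well. Some results of these lists are not reported here.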

Additional observations from a re-analysis of the deposited data

How the results depend on the processing

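Counts of lower genes among the 34 stayed within 1.5 times of those reported under every alternative run. These were pseudocounts of 0.1 and 1, no filter, a filter of 5 TPM, Benjamini-Hochberg in place of Storey's q, median-of-ratios scaling, quantile normalization, leaving out the entry CTD-2328D6.1, the replicate block and leaving out each library. For the mean of the lines the count was 30, with 20 after median-of-ratios scaling and 24 after quantile normalization, and for all 5 lines 20, with 14 and 21. Median-of-ratios scaling moved smaller counts for the mean of the lines by more, from 20 to 9 (further focal adhesion genes), 7 to 3 (capping and severing), 4 to 1 (Arp2/3), 3 to 1 (other myosins) and 6 to 3 (genes with a CArG box). Replicate numbers did not pair the libraries (median correlation of deviations 0.00704 for the same number, lowest -0.0799 over 45 pairs), and the replicate block gave 30 for the mean of the lines, 20 for all 5 lines and 24 genes that differ among them.

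Leaving out each library in turn gave 27 to 29 lower genes (shXPA), 28 to 31 (shXPC), 30 (shERCC4), 23 to 26 (shERCC5), 21 to 23 (shERCC6) and 19 to 21 (all 5 lines). The number higher in shXPC ranged from 0 to 1, the 1 being ACTG2 without shCTRL replicate 3 or without shXPC replicate 1. The log2 ratio of ACTN1 to ACTN4 ranged from -0.76 to -0.64 and passed an unadjusted permutation p under 0.05 without shERCC4 replicate 2 (0.0441), shERCC6 replicate 1 (0.0368) or shERCC6 replicate 2 (0.0441), and that of MYH9 to MYH10 from -0.069 to 0.12.

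Values that turned direction belonged to genes that were not called in the comparison. After median-of-ratios scaling and quantile normalization the log2 fold change was 0.053 and 0.067 for ACTA2 in shXPA, and for MYLK in shXPC 0.025 and 0.00083. CALD1 had 0.11 and 0.11 (shXPA), 0.36 and 0.25 (shXPC), 0.23 and 0.18 (shERCC4) and 0.30 and 0.23 (mean of the lines). LIMA1 had 0.33 and 0.31 (shXPC), 0.093 and 0.099 (shERCC4), 0.15 and 0.15 (shERCC5), 0.12 and 0.092 (shERCC6) and 0.11 and 0.11 (mean). CNN3 had 0.11 and 0.10 in shERCC5, CNN2 0.034 there after median-of-ratios scaling, and after quantile normalization CNN1 had 0.015 in shERCC4 and ACTG2 -0.030 in shXPA. With a pseudocount of 0.1 ACTG2 had -0.063 for the mean. Without single libraries ACTG2 ranged from -0.37 to 0.50 (shXPA), -0.76 to 0.12 (shERCC5), -0.38 to 1.27 (shERCC6) and -0.35 to 0.52 (mean), and in shERCC5 MYLK ranged from -0.57 to 0.0061 and CALD1 from -0.059 to 0.057. The cause was not tested.

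The data hold 1 control line and 1 shRNA per target, and TPM keep no depth, so that levels near 1 TPM, as of CNN1 and ACTG2, have no counting error attached. Reads shared with pseudogenes that have rows of the table (ACTB, ACTG1, CFL1, PFN1, TPM3, TPM4, CNN2 and TAGLN2) or with overlapping genes that do (ACTA2, CFL1, PFN1, MYH10, TAGLN, ACTN1, ACTN4, TLN1, VCL and ZYX) cannot be told apart.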
